A study of Mus musculus with 11 samples.

Results

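The genes described here are 8 transcription factors that mark segments of the kidney tubule: Hnf4a, Hnf4g, Esrrg, Tfap2b, Tfcp2l1, Gata3, Irx1 and Emx1. They were chosen by symbol from the deposited gene list and all 8 were found among its 28692 genes. Their levels were followed through every tubular segment, and through failed-repair tubular cells, of 11 single-cell RNA libraries from mouse kidney. The kidneys came from male C57Bl/6 mice, 10 weeks old at the operation and collected 28 days after it. Of the libraries, 3 were from kidneys injured by UIR (unilateral ischemia-reperfusion, the left renal pedicle clamped for 30 min), 3 from UUO (unilateral ureteral obstruction, the left ureter tied for good) and 5 from controls, naive animals matched for age, strain and sex. Control replicate 1 is named Ctrl, replicates 2 and 3 have names with the prefix N, and replicates 4 and 5 the prefix AN. These prefixes are taken here as batches. The injured libraries share none of them, so batch and injury cannot be told apart. The methods give as many mice per group as there are libraries, while the labels tie no library to an animal, and p-values measure the spread between these libraries.

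A tubular epithelial cell keeps its segment's character through a small set of DNA-binding proteins that stay on in the adult kidney. Hnf4a and Hnf4g are related nuclear receptors, and Hnf4a is needed for the proximal tubule to mature and keeps its transport and metabolic genes on. Irx1 is an Iroquois homeobox factor of the middle nephron, first seen in the part that becomes the loop of Henle. Esrrg is an orphan nuclear receptor that drives mitochondrial genes in tubules with a heavy energy demand. Tfap2b is an AP-2 factor required for the distal tubule, and Emx1 is a homeobox gene related to Emx2, itself required for the urogenital tract to form. Tfcp2l1, a grainyhead-like factor, governs the mixture of principal and intercalated cells in the collecting duct, and Gata3 is a zinc finger factor of the ureteric lineage from which the collecting duct grows.

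The libraries held 91920461 to 110914244 UMIs (unique molecular identifiers, each taken as 1 RNA molecule) in controls, between 82522753 and 117043590 in UIR, and between 49503312 and 60918546 in UUO. Of 86650 barcodes called as cells, 40581 were kept, 16713 of them tubular. The limit of 30% mitochondrial UMIs removed 57.0 to 78.8% of called barcodes in controls, 23.9 to 37.2% for UIR and 3.17 to 8.02% for UUO, so the kept control cells are the smaller part of what was called. Clusters that met no class's criteria made up 0.214% of cells in controls, 6.70% after UIR and 5.26% after UUO. Any 2 of the libraries shared 0 to 15 cell barcodes, at most 0.324% of the smaller library. Classes were named from markers that do not include the 8 genes, which were also kept out of the clustering.

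A level is given below in CPM (counts per 1000000), the gene's UMIs per 1000000 UMIs summed over all cells of 1 class in 1 library, for libraries with at least 20 such cells. Each group of libraries is listed in the order of its replicate numbers. A change is the log2 fold change fitted by edgeR's quasi-likelihood test with its standard error, and a gene is called where the p-value adjusted by Benjamini-Hochberg over all genes tested in that class is under 0.05. The fit scales libraries by TMM, a correction for a few very abundant RNAs, and in the injured distal classes this places a change lower than the ratio of the printed CPM. Without it the median change over all genes rose by up to 0.44 on the log2 scale (UUO distal tubule), whereas with it that median lay between -0.03 and 0.07 in the classes compared. The CPM compare libraries for 1 gene, and are not meant for ranking 1 gene against another.

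The genes lie on 5 chromosomes of GRCm38. Hnf4a (ENSMUSG00000017950) is at chr2:163506808-163572910 on the plus strand, and the antisense gene Hnf4aos overlaps it. Hnf4g (ENSMUSG00000017688) is at chr3:3508030-3658052, plus strand. Esrrg (ENSMUSG00000026610) is at chr1:187608791-188214885, plus strand, with Gm36388 and 9330162B11Rik antisense to it. Tfap2b (ENSMUSG00000025927) is at chr1:19208914-19238576 and Tfcp2l1 (ENSMUSG00000026380) at chr1:118627945-118685168, both on the plus strand. Gata3 (ENSMUSG00000015619) is at chr2:9857078-9890034 on the minus strand, where Gm13256 and 4930412O13Rik run antisense and 9230102O04Rik runs on the same strand. Irx1 (ENSMUSG00000060969) is at chr13:71957921-71963723, minus strand, and Emx1 (ENSMUSG00000033726) at chr6:85187438-85204462, plus strand. All 8 are annotated as protein coding. The overlapping genes were counted separately, and reads that fall in a shared exon of the same strand cannot be assigned with certainty.

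The promoters of 3 of the 4 members that were lower in principal cells of UUO kidneys are shown, because 1 of them, Tfap2b, encodes a factor whose family is known to bind the palindrome GCCNNNGGC. The sequences are from RefSeq on GRCm38.p6, each with 250 bases before and 50 bases from the transcription start, 5′ to 3′ on the gene's strand, with matches to the palindrome in capitals. Tfcp2l1 (chr1:118627695-118627994, plus strand) held 1 match, 231 bases before the start. Gata3 (chr2:9878551-9878850, minus strand) held 3, and Tfap2b itself (chr1:19211804-19212103, plus strand) held 0.
Tfcp2l1: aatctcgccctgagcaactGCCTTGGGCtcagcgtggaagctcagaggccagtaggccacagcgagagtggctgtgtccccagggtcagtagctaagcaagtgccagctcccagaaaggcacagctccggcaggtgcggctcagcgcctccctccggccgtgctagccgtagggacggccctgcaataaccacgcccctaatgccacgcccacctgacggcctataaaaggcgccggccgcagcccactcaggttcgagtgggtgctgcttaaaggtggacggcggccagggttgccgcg
Gata3: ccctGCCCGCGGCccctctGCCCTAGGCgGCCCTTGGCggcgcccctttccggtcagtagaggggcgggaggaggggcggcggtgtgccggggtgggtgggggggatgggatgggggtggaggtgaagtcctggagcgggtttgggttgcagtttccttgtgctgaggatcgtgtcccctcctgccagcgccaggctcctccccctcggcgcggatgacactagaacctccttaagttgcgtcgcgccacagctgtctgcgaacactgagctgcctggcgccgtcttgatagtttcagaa
Tfap2b: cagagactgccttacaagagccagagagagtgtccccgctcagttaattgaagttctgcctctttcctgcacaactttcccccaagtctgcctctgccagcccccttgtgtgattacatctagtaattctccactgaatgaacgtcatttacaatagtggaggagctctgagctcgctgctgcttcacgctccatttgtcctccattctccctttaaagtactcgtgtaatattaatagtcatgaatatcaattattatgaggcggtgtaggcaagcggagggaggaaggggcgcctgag
The palindrome reads the same on both strands, and 5450 of 32851 promoter entries of this length held it, or 16.6%. Among the members, 6 of 8 had an entry in that table, and Hnf4g and Irx1 did not. Esrrg, the other member lower in those cells, has 4 entries at different starts, of which 1 held a match, and they are not printed. Emx1, tested in those cells and not called, also held 1 match. Binding to any of these matches was not tested.

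In control kidneys each factor had a segment of its own or a run of neighbouring segments. Hnf4a was at 217 ± 16.0 CPM (SD, n = 5) in the proximal tubule (PT), and the next class, the thin limb of Henle's loop, was at 9.54 CPM over 2 libraries, with no overlap. Hnf4g was also highest in the PT, at 21.1 ± 2.83 CPM (SD, n = 5), and next in the thin limb, at 4.05 CPM from 2 UMIs in 1 of 2 libraries. It had 0 UMIs in every control library in the loop of Henle (the thick ascending limb, LOH) and in principal cells of the collecting duct (CD-P). Irx1 was highest in the thin limb (191 CPM, 2 libraries) and the LOH (168 ± 64.0, SD, n = 5), which overlapped, and then fell away to 11.7 CPM in the PT, which did not overlap with them. Among the PT segments Irx1 was highest in S3, at 96.1 to 139 CPM over the 5 controls.

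The other factors were distal. Emx1 was highest in the distal convoluted tubule (DCT, 243 ± 13.4 CPM, SD, n = 5), lower in the connecting tubule (CNT, 129 ± 29.6) and lower again in CD-P (20.4 ± 15.2), with no overlap between these steps. Tfap2b ran from the LOH (400 ± 65.1) through CNT (273 ± 22.5), DCT (208 ± 24.7) and CD-P (205 ± 39.0), each overlapping the next, to intercalated cells (CD-I, 87.1 ± 35.1), which stood apart from CD-P. Gata3 was highest, among tubular classes, in CD-P (343 ± 18.7; control stroma was at 386 to 752), followed without overlap by CNT (199 ± 27.0), then CD-I (156 ± 33.2) and DCT (98.4 ± 18.3), and was near 0 in the LOH (1.09) and the PT (0.412). The lowest CD-I library (115.2 CPM) overlapped narrowly with DCT, which reached 115.4. The place of Gata3 in CD-I rests on a cluster of very deep cells, without which CD-I was at 57.9 to 117 CPM. Tfcp2l1 was the member with the widest reach, at 1329 ± 167 CPM in CD-I and 1257 ± 176 in CD-P, which overlapped, then 828 ± 99.9 in CNT, 443 ± 105 in LOH, 428 ± 43.0 in DCT and still 78.6 ± 7.65 in the PT. Esrrg had the flattest profile, with CD-I (61.3 ± 23.9), LOH (52.1 ± 22.5), CNT (47.3 ± 14.9), DCT (42.5 ± 12.5) and CD-P (31.0 ± 9.68) each overlapping the next, and the PT below them all at 14.4 ± 2.76. These errors are SDs over 5 control libraries, and since the classes are clusters of the same cells the order is a description.

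**Figure D1:**
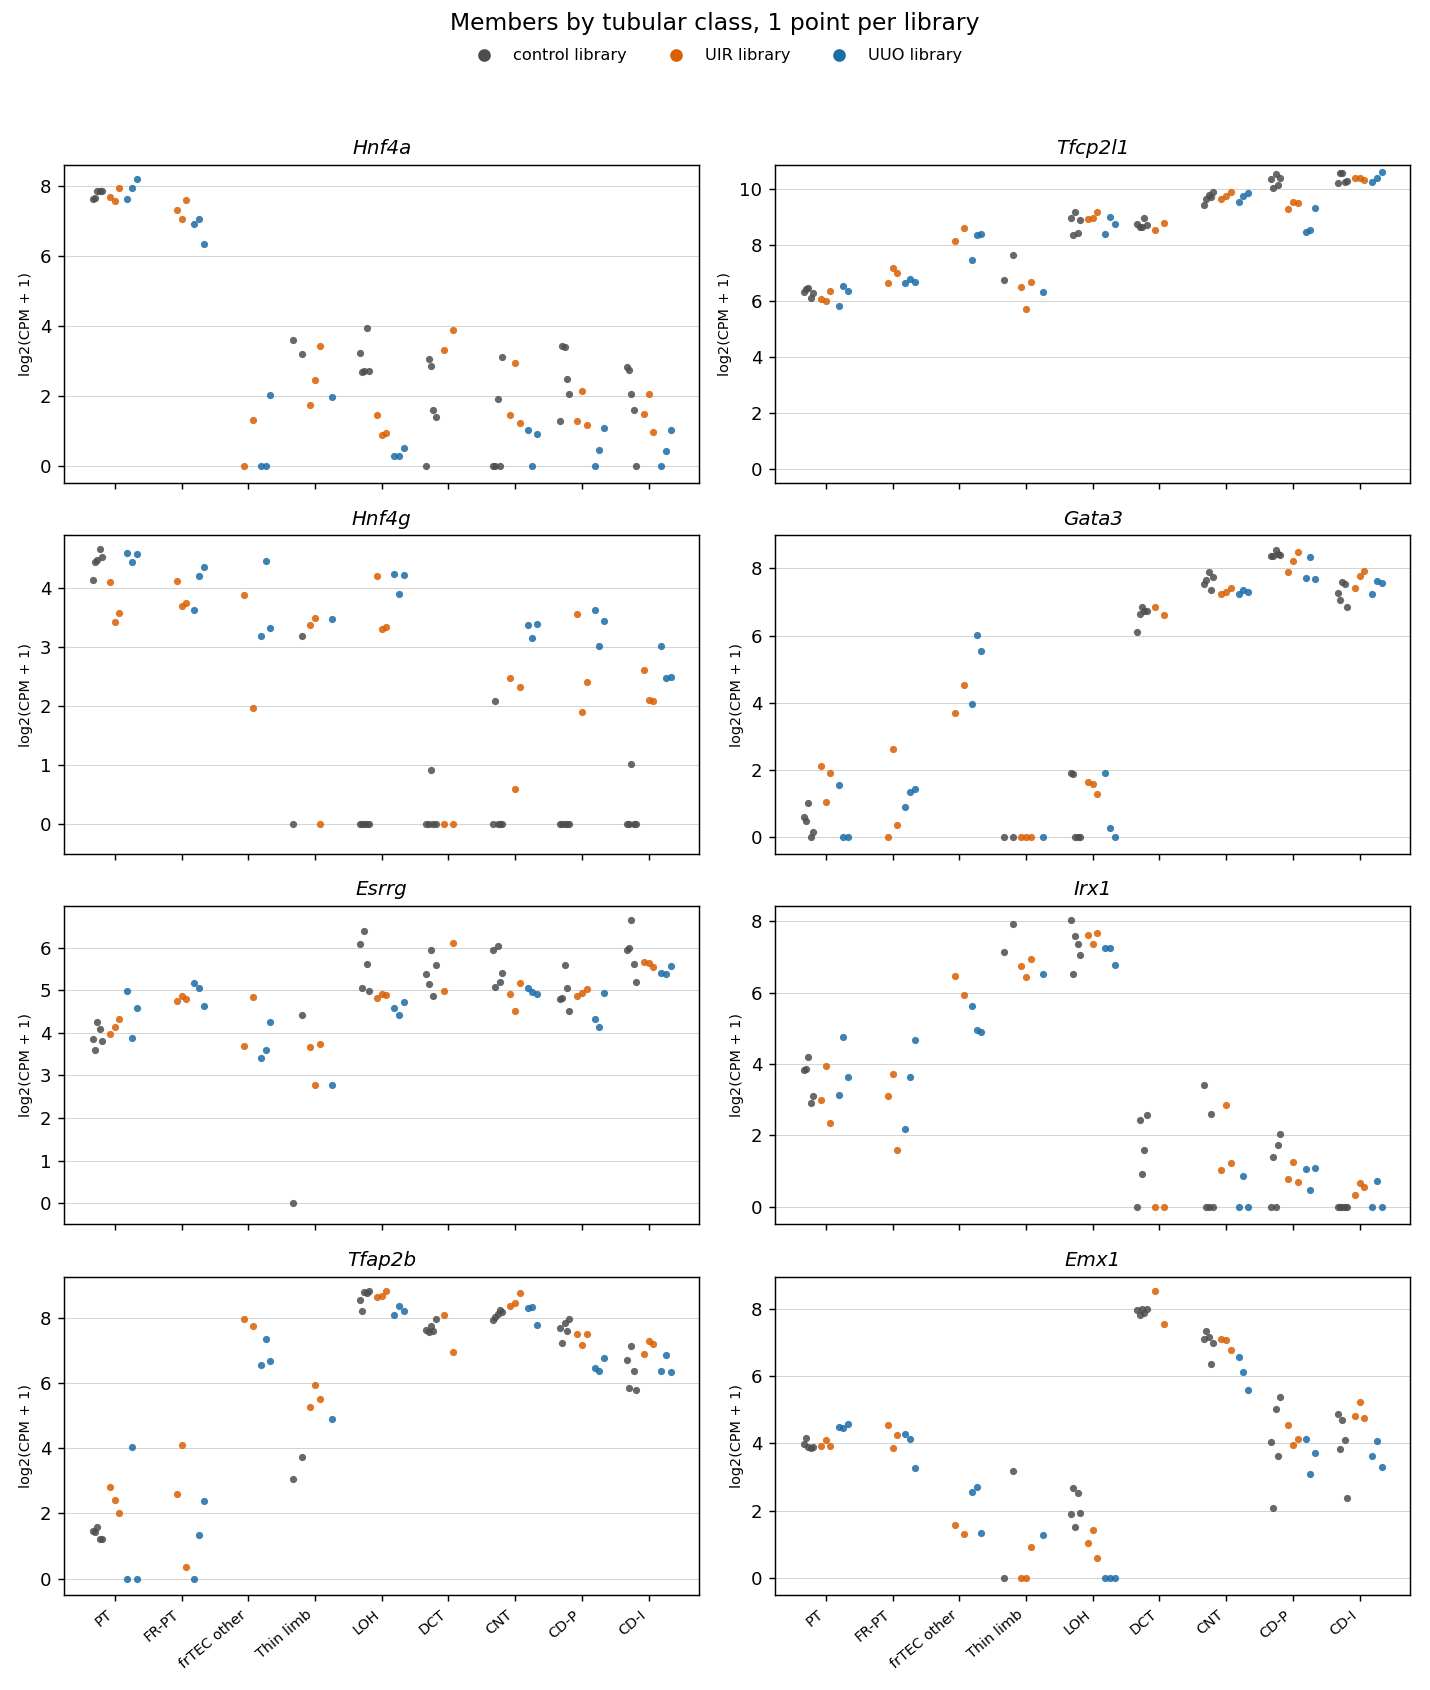
Levels of the 8 members in 9 tubular classes along the x axis (frTEC other is the failed-repair cluster led by Cxcl5), as log2(CPM + 1) on the y axis with 1 point per library of at least 20 cells of the class, in grey for control, orange for UIR and blue for UUO. Hnf4a stays high in PT of all 3 groups, Hnf4g appears in LOH and CD-P only in injured libraries, and Tfcp2l1 in CD-P is lower in every injured library than in any control.

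Genes whose control profile was most like that of each member, over 32 pools of 1 class in 1 control library and 8589 genes of at least 10 CPM on average, were ranked as a description. The measure was Pearson's r of log2(CPM + 1), and pools of 1 library share its depth and cell quality. For Hnf4a they were Slc3a1 (r = 0.95), a cystine transporter subunit of the proximal brush border, Acmsd (0.926) and Eci3 (0.916), and for Hnf4g they were Hsd3b3 (0.956), Gpx1 (0.939) and 4931406C07Rik (0.937). Irx1 went with its cluster neighbour Irx2 (0.941), Foxc1 (0.880) and Bmp4 (0.872). Emx1 went with Slc8a1 (0.873), Calb1 (0.849) and S100g (0.840), a sodium-calcium exchanger and calcium-binding proteins of calcium reabsorption. Gata3 went with the sodium channel subunit Scnn1g (0.976), Gata2 (0.975) and the ammonia transporter Rhcg (0.974), and Tfcp2l1 with the proton pump subunit Atp6v1f (0.958) and Mal2 (0.952). The closest genes for Tfap2b were Slc1a5 (0.979), Nudt4 (0.977) and Wfdc2 (0.969), and for Esrrg Rragd (0.883), Spire1 (0.862) and Zbtb5 (0.843).

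The first question was whether the surviving PT of injured kidneys kept its own factors. PT cells numbered 6974 in controls, 2651 in UIR and only 217 in UUO, at 63, 96 and 58 per UUO library. Hnf4a was at 230, 228, 229, 198 and 202 CPM in the controls, 189, 246 and 206 after UIR, and 242, 291 and 197 after UUO. The 3 groups overlapped, and the fitted change was -0.03 ± 0.11 in UIR (adjusted p = 0.88) and 0.09 ± 0.12 in UUO (adjusted p = 0.72). Hnf4g was at 21.3, 24.3, 22.2, 16.6 and 20.8 CPM in controls and 9.79, 10.9 and 16.2 in UIR, every UIR library below every control, while UUO stood at 20.7, 22.9 and 23.2, inside the control range, from 12, 16 and 12 UMIs. It fell by 0.80 ± 0.16 on the log2 scale in UIR (adjusted p = 0.0023) and changed by 0.00 ± 0.25 in UUO (adjusted p = 1). The make-up of the PT class differed between the groups, since clusters outside S1 to S3 held 17.2% of its UMIs in controls, 47.8% in UIR and 67.1% in UUO. In the S1 to S3 clusters together Hnf4g was at 19.5 to 29.6 CPM in controls and 13.5 to 18.2 in UIR, without overlap. In UUO it was at 24.1, 42.0 and 43.1 there, from 4, 11 and 7 UMIs in 21, 40 and 14 cells, the last below the minimum of 20 cells. In the other PT clusters, where it was lower, it was at 0.795 to 13.9 in controls and 5.83 to 12.8 in UIR, with overlap through control replicate 1 only. UUO was at 19.4, 11.4 and 14.1 there, from 8, 5 and 5 UMIs. How much of the whole-class fall in UIR, or of the lack of change in UUO, is a shift between clusters was not tested. Per segment the UIR change of Hnf4g was -0.32 in S1, -0.64 in S2 and -1.02 in S3, and none of these passed the test. The call did not hold with a mitochondrial limit of 15% (-0.45, adjusted p = 0.44), against the AN controls alone (-0.67, 0.054) or with cells capped at 2000 UMIs (-0.80, 0.13).

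Of the 8 members tested in PT, 3 were called in UIR (Hnf4g, Tfap2b and Gata3), against 14.4% of all 11952 genes tested, and 0 in UUO, against 10.9%. The median change of the 8 was 0.00 in UIR and 0.20 in UUO, beside a median over all genes of -0.01 and -0.03. In UUO, where edgeR called 0, 1 member (Emx1) had an unadjusted p under 0.05 and DESeq2 called 0. In S3, the straight end of the PT, Irx1 was at 139, 96.1, 114, 124 and 122 CPM in controls and 70.3, 47.2 and 51.7 in UIR, with no overlap. It fell by 1.06 ± 0.19 there (adjusted p = 0.00068), the only call among 5 members tested in S3, where 4.45% of all genes were called. The call was lost against the N controls alone (-0.83, adjusted p = 0.068). Over the whole PT, Irx1 was not called (-0.39 ± 0.35 in UIR, adjusted p = 0.52).

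The other PT members called in UIR were distal factors at very low level. Tfap2b was at 1.97, 1.32, 1.32, 1.77 and 1.71 CPM in controls and 4.29, 3.0 and 5.95 in UIR, a change of 1.40 ± 0.42 (adjusted p = 0.031), and in UUO 1 library had 15.5 CPM and the other two 0. Gata3 was at 1.02, 0, 0.12, 0.519 and 0.401 CPM in controls and 1.07, 2.78 and 3.33 in UIR, from 8, 13 and 14 UMIs, a change of 2.21 ± 0.59. Gata3 passed the filter on low counts only through injured libraries, so this change is a description and its call is not given as support. Both sets of levels lie below those in the empty droplets of the same libraries, where Tfap2b had a median of 12.5 CPM in controls and 35.7 in UIR, and Gata3 5.15 and 17.9. The summed markers of CD-P in the PT moved the same way, from 29.3 to 46.5 CPM in controls to 49.2 to 73.1 in UIR, as did the markers of macrophages and dendritic cells, from 28.5 to 49.9 to 322 to 1024, and the part of other cells in these calls was not tested. With each library's empty-droplet profile subtracted, Tfap2b in PT went from 82, 71 and 9 UMIs in control, UIR and UUO to 11, 3 and 5, and Gata3 from 24, 35 and 1 to 2, 4 and 0, so neither had enough counts left to be tested. Tfap2b changed by 0.24 with a mitochondrial limit of 50% (adjusted p = 0.68), 0.83 with doublets kept (0.30) and 0.74 with cells capped at 2000 UMIs (0.35), and it was not called in 12 of 24 alternatives. It lost its call without control replicate 2 (1.34, adjusted p = 0.063), 3 (1.34, 0.052), 4 (1.44, 0.053) or 5 (1.42, 0.055) and without UIR replicate 1 (1.39, 0.12) or 3 (1.15, 0.13). The change of Gata3 was 2.89 without control replicate 1 and 4.63 against the N controls alone, which held 0 and 1 UMI. It was 2.07 without UIR replicate 2 (adjusted p = 0.072) and 1.88 without UIR replicate 3 (0.087), neither called. In 4 alternatives Gata3 had no value. Esrrg, Tfcp2l1 and Emx1 were not called in PT of either model, with changes of 0.21 ± 0.17, -0.17 ± 0.11 and 0.03 ± 0.13 in UIR and 0.54 ± 0.28, -0.12 and 0.49 ± 0.22 in UUO. Between the models edgeR called 0 of the 8 in PT, beside 0.00837% of all genes, 1 (Hnf4g) had an unadjusted p under 0.05 and DESeq2 called 0.

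Proximal genes of mature function, none of them a class marker, were counted in PT from a list of 18, all of which were tested. In UIR 2 were called higher and 6 lower, with a median change of -0.23, and in UUO 2 higher and 6 lower, with a median of -0.42, beside the medians and the shares called over all genes given above (14.4% and 10.9%). Lower in both were G6pc (-1.45 ± 0.20 in UIR and -1.62 ± 0.24 in UUO) and Pck1 (-0.77 ± 0.15 and -0.98 ± 0.16), enzymes of glucose production, the amino acid transporter Slc6a19 (-0.67 ± 0.17 and -0.98 ± 0.21) and Apom (-0.77 ± 0.16 and -0.63 ± 0.20), an apolipoprotein that carries sphingosine phosphate. Cdhr5, a cadherin of brush border links, was higher in both (0.69 ± 0.13 and 0.99 ± 0.15). The largest change on the list was that of Hpd, a tyrosine breakdown enzyme, at -2.16 ± 0.26 in UIR, with -0.55 ± 0.37 in UUO (adjusted p = 0.39).

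**Figure D2:**
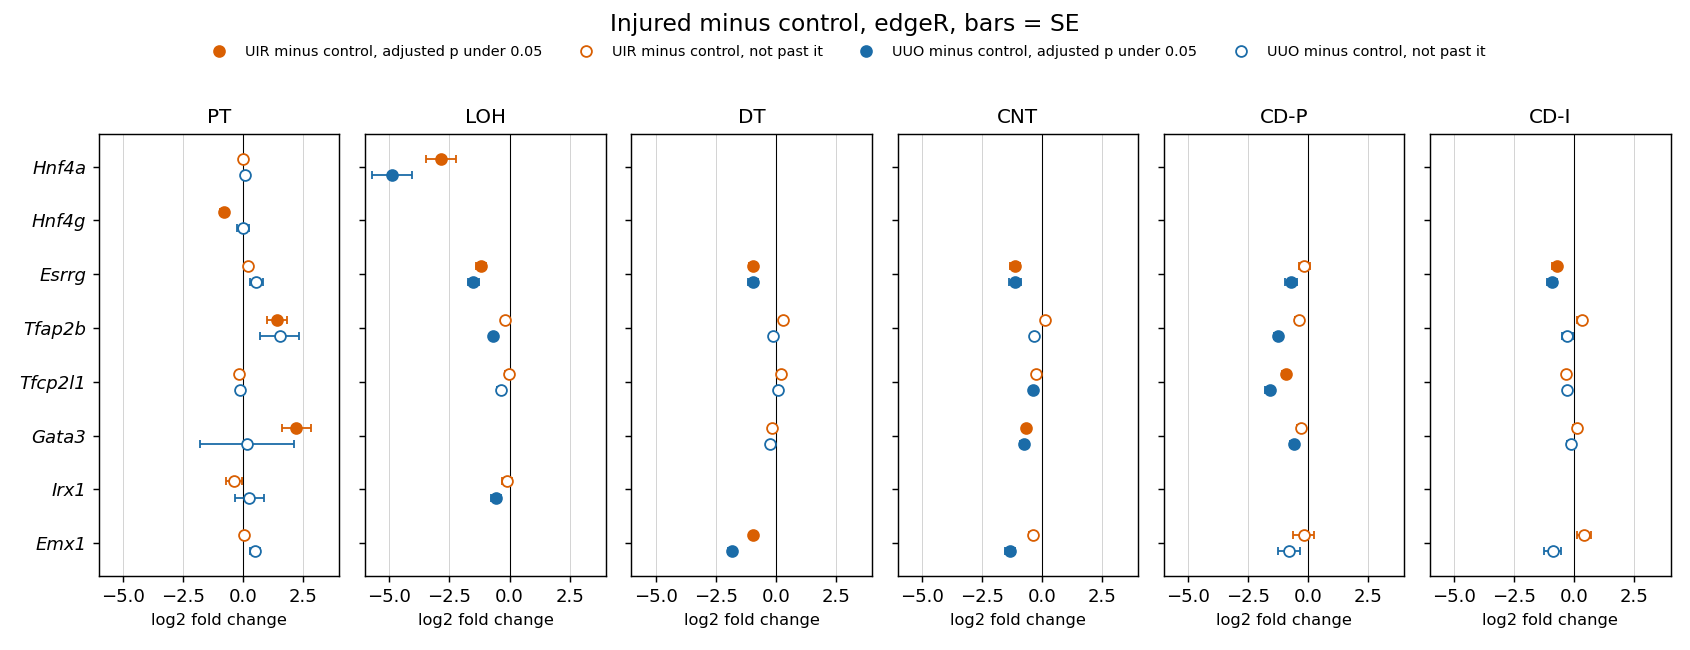
Fitted log2 fold change of each member against control in 6 tubular classes, with SE bars, UIR in orange and UUO in blue, filled where the adjusted p is under 0.05. Hnf4g in LOH is left out because its controls are all at 0. Filled points lie mostly left of 0 in the distal classes and the Hnf4a points in LOH lie farthest left. Hnf4a in LOH and Gata3 in PT passed the filter on low counts only through the groups where they were high. Their filled points are not given as support.

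Failed-repair cells with PT character (FR-PT, led by C3, Vcam1, Ubd and Havcr1) numbered 9 in controls, 468 in UIR and 163 in UUO, so only the injury models could be compared. These cells still held Hnf4a, at 132, 193 and 157 CPM in UIR and 131, 79.4 and 119 in UUO, every UUO library below every UIR library. The difference was -0.60 ± 0.19 (UUO minus UIR, adjusted p = 0.23) and did not pass the test. Free RNA was estimated at 6.91 to 47.1% of UMIs in the UIR libraries of this class and 9.64 to 14.1% in UUO, and with it subtracted the difference was -0.57 ± 0.19 (adjusted p = 0.35). Hnf4g was at 12, 12.5 and 16.4 CPM in UIR and 17.6, 19.6 and 11.4 in UUO, and Esrrg at 28.1, 27.0 and 25.9 against 32.0, 23.9 and 35.0, both with overlap. Of 6 members tested, 0 passed edgeR's threshold, 0.989% of all genes did, 1 (Hnf4a) had an unadjusted p under 0.05 and DESeq2 called 0. The summed PT markers in these cells were at 2326 to 3902 CPM in UIR and 1542 to 2115 in UUO, and the failed-repair markers at 1325 to 1710 and 2009-2211.

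Another failed-repair cluster, led by Cxcl5, Ccl20 and Mmp7, held 52 UIR and 78 UUO cells and 0 control cells, and it held UMIs of the loop and distal factors. Its Tfap2b was at 248 and 214 CPM in 2 UIR libraries and 162, 101 and 92.3 in UUO, its Tfcp2l1 at 279 and 384 against 326, 337 and 175, and its Irx1 at 87.2 and 59.7 against 29.9, 28.7 and 48.6. Hnf4a had 1 UMI in all UIR cells and 2 in all UUO cells, while Hnf4g reached 13.9 and 2.91 CPM in UIR and 21.1, 9.06 and 8.10 in UUO. In FR-PT, by comparison, Tfap2b was at 16.3, 0.29 and 5.05 CPM in UIR and 1.55, 4.27 and 0 in UUO. The comparison of the 2 clusters is a description.

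In the LOH, Hnf4g was detected in all 6 injured libraries and in no control library. It had 0 UMIs in all 5 control libraries, 8.96, 9.11 and 17.5 CPM in UIR from 64, 90 and 131 UMIs, and 14.0, 17.7 and 17.8 CPM in UUO from 69, 43 and 85 UMIs. Against a floor of 3 UMIs over the control group it was at least 7.14-fold higher in UIR and at least 9.99-fold higher in UUO. It passed the filter on low counts only through the injured libraries, so its being called in the fit is not given as support. With 248 control cells at a median of 6101 UMIs against 1235 UIR cells at 12096 and 685 UUO cells at 13567, the controls are also the shallower group. The share of LOH cells with an Hnf4g UMI was 0% in controls, 9.87 to 22.7% with UIR and 18.8 to 22.7% with UUO, and in macrophages and dendritic cells of the same kidneys, at a median of 1253 to 2600 UMIs against 9383 to 16739 in LOH, it was 0 to 0.12% in UIR and 0 to 0.04% in UUO. Thinned to 1000 UMIs per cell the LOH shares were 0%, 0.53 to 1.96% and 0.94 to 1.46%. Where only the N or only the AN controls were set against UIR it was not called (adjusted p = 0.1 and 0.071). The absence from control LOH depends on which cells are kept. With a mitochondrial limit of 50% the control group held 4 Hnf4g UMIs in 1359 cells (0.533 CPM, against 10.4 in UIR and 14.8 in UUO), and with doublets kept 2 UMIs in 259 cells (1.04 CPM, against 11.9 and 15.9).

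Hnf4a was at a lower level in the same injured cells. It was at 5.53, 14.4, 5.59, 8.32 and 5.37 CPM in control LOH, from 2 or 3 UMIs each, at 0.84, 0.911 and 1.73 in UIR and at 0.203, 0.413 and 0.21 in UUO, with no overlap between any 2 groups. The fitted change was -2.84 ± 0.62 in UIR and -4.90 ± 0.82 in UUO, from 13, 28 and 3 UMIs in the 3 groups. Hnf4a passed the filter only through the controls, so these changes are a description and their calls are not given as support. The 10 summed PT markers fell alongside, from 194 to 313 CPM in control LOH to 59.0 to 106 in UIR and 18.7 to 29.2 in UUO, and Hnf4a in empty droplets had ranges of 46.3 to 156, 33.2 to 64.0 and 11.4 to 27.7 CPM. With the empty-droplet profile subtracted, scaled to remove PT markers, Hnf4a in LOH went from 13, 28 and 3 UMIs to 3, 0 and 0 and no longer passed the filter on low counts. It also gave no value at the 15% mitochondrial limit or with capped cells, and with unnamed clusters included the UIR change was -1.81. Hnf4g kept 0, 284 and 197 UMIs of 0, 285 and 197 after the same subtraction. The empty-droplet level of Hnf4g was 0.59 to 4.56 CPM in controls, 0.80 to 2.02 with UIR and 0.64 to 2.44 with UUO.

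Among the factors that mark the LOH, Esrrg was lower in both models. It was at 82.9, 48.1, 30.7, 66.6 and 32.2 CPM in controls, 29.3, 28.8 and 27.3 in UIR and 20.3, 25.6 and 23.1 in UUO, every injured library below every control. It fell by 1.18 ± 0.22 in UIR (adjusted p = 0.00015) and by 1.51 ± 0.23 in UUO (adjusted p = 1.1e-05), with only the N controls by 0.61 (adjusted p = 0.23) and 0.94 (0.053), and with capped cells by 0.95 (0.10) and 1.07 (0.078). Tfap2b was at 444, 433, 452, 372 and 298 CPM in controls, 405, 450 and 396 in UIR and 331, 292 and 273 in UUO, where it fell by 0.67 ± 0.14 (adjusted p = 0.00042), with no call in UIR (-0.19 ± 0.14, adjusted p = 0.33). Against the AN controls alone the UUO change was -0.43 (adjusted p = 0.076), and without TMM it was -0.42, still called. Irx1 overlapped between groups, at 192, 164, 131, 261 and 91.3 CPM in controls and 151, 109 and 150 in UUO. Its call in UUO (-0.55 ± 0.20, adjusted p = 0.038) was lost without control replicate 1 (-0.50, adjusted p = 0.098), 2 (-0.56, 0.057) or 4 (-0.31, 0.23), and without UUO replicate 1 (-0.60, 0.05) or 2 (-0.40, 0.17), and the change was 0.0033 with capped cells, -0.30 without TMM (adjusted p = 0.25) and -0.30 against the N controls alone (0.41). In all it did not hold in 11 of 25 alternatives. Tfcp2l1 was not called in either model (-0.03 and -0.34 ± 0.16), and Gata3, with 2 UMIs in control LOH, had ratios of 1.65 (exact 95% interval 0.431 to 14.1) and 1.06 (0.245 to 9.65). With the empty-droplet profile subtracted, the 14 Gata3 UMIs of UUO LOH became 8, all in 1 library.

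Of 6 members tested in LOH, 3 were called in UIR, 1 higher and 2 lower, against 31.6% of 11172 genes, and 5 in UUO, 1 higher and 4 lower, against 35.8%. Hnf4a and Hnf4g are among those called in both, and of the other 4 members tested 1 was called in UIR and 3 in UUO. The LOH of control kidneys was almost 1 cluster, led by Egf and Wfdc15b (236 of 248 cells), while UIR cells lay in a cluster led by Slc12a1, Umod and Kng2 (616 cells) and one led by Psca, Umod and Mt2 (550), and UUO cells in the latter (491) and the former (191). The summed LOH markers were at 24035 to 31602 CPM in controls, 13320 to 14028 after UIR and 8600 to 9351 after UUO. In the control-type cluster 69 UIR cells remained, and there Hnf4g was at 0 and Esrrg at 74.6 CPM, beside 0 and 49.0 in its control cells. In the Slc12a1 cluster of UIR Hnf4g was at 6.89 and Esrrg at 35.1, and in the Psca cluster 14.3 and 23.8, so within UIR Hnf4g was highest and Esrrg lowest in the Psca cluster. Tfap2b did not follow that order, at 320, 518 and 374 CPM in the same clusters. These cluster values are sums over a group with no test.

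Hnf4g UMIs were also found in other distal classes of injured kidneys, at lower levels. No test of the share of cells with Hnf4g passed after adjustment in DT, CD-P or CD-I, and CNT alone was not tested. In CD-P Hnf4g had 0 UMIs in all 5 control libraries, 2.74, 4.30 and 10.8 CPM in UIR and 7.15, 9.87 and 11.5 in UUO, at least 5.29-fold and 8.26-fold higher than the floor of 3 UMIs. In CNT 1 control library of 5 had a single UMI (3.28 CPM), against 0.516, 4.03 and 4.56 CPM in UIR and 7.95, 9.51 and 9.36 in UUO, a ratio of 5.94 (exact 95% interval 0.964 to 245) and 16.1 (2.68 to 657). In CD-I it was at 1.04, 0, 0, 0 and 0 CPM in controls, 3.30, 3.27 and 5.14 in UIR and 4.59, 4.68 and 7.13 in UUO, a ratio of 11.4 (1.95 to 457) and 14.9 (2.48 to 609). Most of that in CD-I came from a cluster of very deep cells (a median of 37844.5 UMIs in UIR) that also held the principal-cell genes Hsd11b2 and Spink8, and without it the ratios were 2.40 (0.291 to 110) and 2.53 (0.283 to 120). Hnf4g did not pass the filter on low counts in these classes. Shares of cells were compared by 22 exact permutation tests, two-sided, for pairs of member and class outside that filter. Of these, 7 had a p under 0.05, and none stayed under it after Benjamini-Hochberg adjustment. The smallest p of this design is 0.0357, so none could pass adjustment unless most of the 22 reached it. With cells thinned to 1000 UMIs no test had a p under 0.05. Thinned Hnf4g shares were 0 in every control library and at most 1.45% in an injured one, too low for these tests to decide. In stroma Hnf4g had 0 UMIs in every library, in podocytes it had 3 UMIs, all in 1 UUO library (6.35 CPM), and in T and natural killer cells it reached 10.3 CPM in 1 control library, from 4 UMIs.

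**Figure D3:**
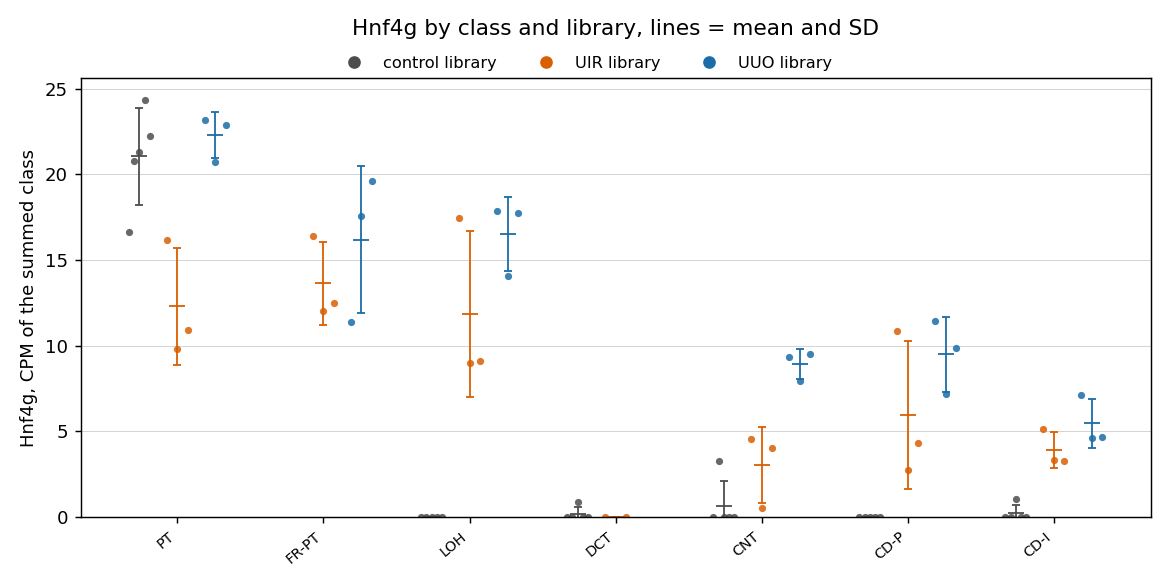
Hnf4g level in 7 classes, in CPM of the class summed per library, 1 point per library, with the mean and SD of each group as lines. Controls are at 0 in LOH and CD-P, the 3 UUO libraries reach 14.0 to 17.8 CPM in LOH, and in PT the 3 UIR libraries lie below the controls and the UUO libraries among them.

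Emx1, the factor of the distal convoluted and connecting tubule, was called between the injury models in 3 classes. The distal tubule as a whole contains the CNT cells (227 of its 241 cells in UUO), so these results share cells. In CD-I, Emx1 sat in a cluster of very deep cells. In the CNT it was at 143, 81.6, 125, 135 and 161 CPM in controls, 133, 109 and 137 after UIR, and 68.4, 46.7 and 92.5 after UUO. The UIR libraries lay inside the control range, and each UUO library below all UIR libraries, with 1 of them above the lowest control. The change was -0.38 ± 0.18 in UIR (adjusted p = 0.17) and -1.34 ± 0.21 in UUO (adjusted p = 1.3e-05), and UUO was below UIR by -0.96 ± 0.19 (adjusted p = 0.0042). Against the N controls alone the UUO change was -1.02 (adjusted p = 0.051), and the difference between models was -0.74 (adjusted p = 0.058) without UUO replicate 2, -0.89 (0.081) at the 15% mitochondrial limit and -0.88 (0.23) with capped cells. At a clustering resolution of 2 the UUO change was -2.29.

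In the distal tubule as a whole (DT, DCT and CNT together) Emx1 was at 209, 190, 216, 200 and 205 CPM in controls, 137, 113 and 154 in UIR and 81.5, 61.9 and 92.5 in UUO, in 3 steps without overlap. It fell by 0.95 ± 0.13 in UIR (adjusted p = 5.7e-06) and by 1.82 ± 0.15 in UUO (adjusted p = 1.3e-09), with a difference between models of -0.88 ± 0.16 (adjusted p = 0.0023), not called with capped cells (-0.88, 0.085), and without TMM the UIR change was -0.59, still called. The make-up of DT differs between the groups, with 453 DCT and 170 CNT cells in controls, 90 and 537 in UIR and 14 and 227 in UUO, and DCT holds more Emx1 than CNT. In the DCT cells themselves, 2 UIR libraries had 185 and 366 CPM beside 224 to 255 in controls, a change of 0.20 ± 0.21, at a median of 1588 UMIs per cell in UIR. In DCT edgeR called 0 of 5 members, 0 had an unadjusted p under 0.05 and DESeq2 called 0. CNT cells also differed in cluster, with 110 of 170 control cells led by S100g and Calb1, and 327 of 537 UIR and 172 of 227 UUO cells in a cluster led by Tmem52b, Slc12a3, Klk1 and Clu. In that injured cluster Emx1 was at 134 CPM in UIR and 69.2 in UUO, and in the S100g cluster at 137 in controls and 108 in UIR. The summed CNT markers were at 42137 to 68188 CPM in control CNT, 9929 to 18659 in UIR and 2277 to 5396 in UUO, and the DCT markers at 283 to 484, 1051 to 1318 and 532-598.

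**Figure D4:**
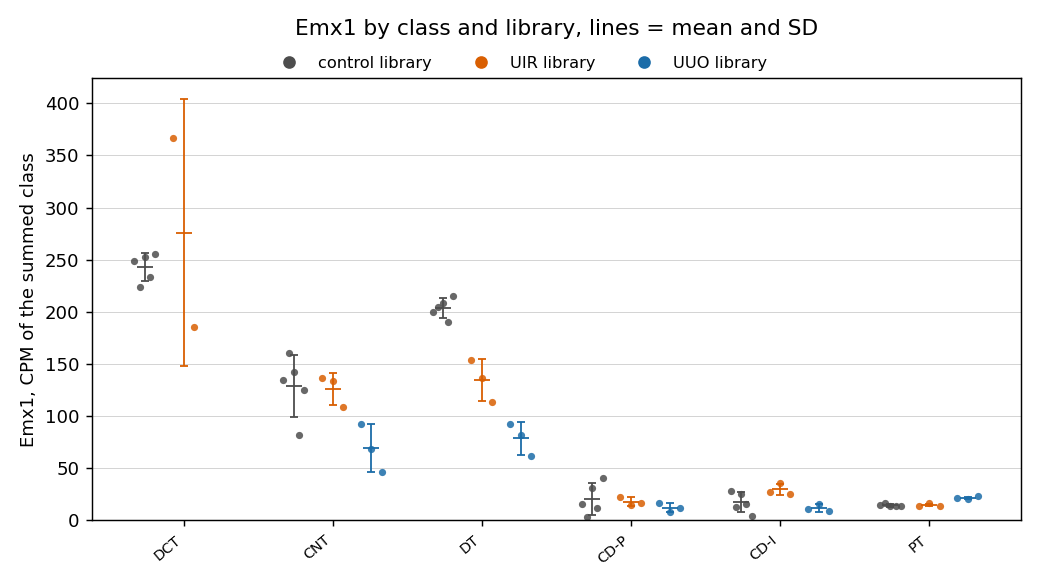
Emx1 level in 6 classes, in CPM of the class summed per library, 1 point per library, with the mean and SD of each group as lines. In DT the groups form 3 steps, 190 to 216 CPM in controls, 113 to 154 for UIR and 61.9 to 92.5 for UUO, whereas in CNT only UUO lies lower.

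Esrrg was lower in the distal tubule of both models. In CNT it was at 65.2, 35.7, 41.6, 61.0 and 32.8 CPM in controls, 21.7, 35.3 and 29.1 in UIR and 30.2, 29.4 and 32.2 in UUO, and it fell by 1.12 ± 0.22 (adjusted p = 0.00049) and 1.11 ± 0.24 (adjusted p = 0.00078). One UIR library lay inside the control range. Against the N controls alone the changes were -0.76 (adjusted p = 0.24) and -0.75 (0.20), and against the AN controls alone -1.04 (0.065) and -1.04 (0.05). In DT it fell by 0.95 ± 0.18 and 0.95 ± 0.20 (adjusted p = 0.00027 and 0.00055), and without TMM by 0.59 and 0.51 (0.016 and 0.048), and the UUO call was lost at the 15% mitochondrial limit (-0.82, 0.068). Gata3 in CNT was at 235, 163, 212, 186 and 200 CPM in controls, 156, 171 and 149 in UIR and 164, 156 and 151 in UUO, and it fell by 0.67 ± 0.13 (adjusted p = 0.00037) and 0.76 ± 0.14 (adjusted p = 8.9e-05). The UIR call of Gata3 was lost with a mitochondrial limit of 50% (-0.12, adjusted p = 0.39), without TMM scaling (-0.35, 0.052), against the N controls alone (-0.58, 0.064) and with capped cells (-0.59, 0.17). The UUO call was lost with capped cells (-0.47, adjusted p = 0.31), and the change was -0.27 at the 50% limit and -0.37 without TMM, both still called. The call of Tfcp2l1 in UUO CNT (-0.37 ± 0.13, adjusted p = 0.037) did not hold in 13 of 25 alternatives, and its change without TMM was 0.02 (adjusted p = 0.9), its CPM being 879, 826, 957, 690 and 787 in controls and 855, 921 and 735 in UUO, with overlap. It was lost too without control replicate 1 (-0.37, adjusted p = 0.063), 2 (-0.37, 0.058) or 3 (-0.32, 0.1) and without UUO replicate 1 (-0.38, 0.098) or 3 (-0.30, 0.14).

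In CNT 2 of 5 members tested were called in UIR and 4 in UUO, all lower, against 20.6% and 28.7% of 9302 genes, and 1 in UUO against UIR, where 2.35% were. In DT 2 of 5 were called lower in each model, against 33.5% and 40.9%, and 1 between the models, against 2.5%. The medians of the members in CNT were -0.38 and -0.76, beside 0.02 and 0.03 over all genes. Tfap2b, required for the distal tubule, was not called in CNT or DT (0.13 and -0.32 in CNT). Without TMM it was called higher in CNT of UIR, by 0.46 (adjusted p = 0.022), and in DT, by 0.66 in UIR and 0.35 in UUO, and Tfcp2l1 by 0.58 and 0.55, where the TMM fit gave 0.30 and -0.10 for Tfap2b and 0.22 and 0.10 for Tfcp2l1.

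In principal cells of the collecting duct Tfcp2l1 fell in both models, and Tfap2b, Gata3 and Esrrg fell in UUO. Tfcp2l1 was at 1482, 1125, 1324, 1317 and 1038 CPM in controls, 744, 720 and 628 in UIR and 370, 630 and 353 in UUO. Injured libraries all lay below the lowest control, and 1 UUO library overlapped with UIR. It fell by 0.93 ± 0.17 in UIR (adjusted p = 0.0006) and by 1.60 ± 0.18 in UUO (adjusted p = 8.5e-07), and the difference between the models, -0.67 ± 0.19, had an adjusted p of 0.057. At the 15% mitochondrial limit the UIR change was -0.91 (adjusted p = 0.052). Tfap2b was at 231, 192, 250, 205 and 148 CPM in controls, 142, 180 and 179 after UIR, and 80.9, 109 and 87.9 after UUO, the UUO libraries below all others. It fell by 1.26 ± 0.17 in UUO (adjusted p = 7.3e-06), was not called in UIR (-0.37 ± 0.16, adjusted p = 0.12), and differed between the models by -0.89 ± 0.18 (UUO minus UIR, adjusted p = 0.0059). At the 15% mitochondrial limit neither call held, with a UUO change of -0.53 (adjusted p = 0.21) and a difference of -0.76 (0.098).

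Gata3 in these cells was at 375, 341, 337, 332 and 328 CPM in controls, 296, 358 and 237 in UIR and 321, 203 and 210 in UUO. Every UUO library lay below every control and 1 UIR library did not, and the change was -0.29 in UIR (adjusted p = 0.25) and -0.58 ± 0.16 in UUO (adjusted p = 0.0083). With cells capped at 2000 UMIs the UUO change was -0.10 (adjusted p = 0.78), at the 15% mitochondrial limit -0.77 (0.083), without UUO replicate 2 -0.45 (0.052), and against the N or the AN controls alone -0.58 (0.096) and -0.53 (0.094). Esrrg overlapped between the groups, at 47.1, 32.0, 21.9, 26.6 and 27.3 CPM in controls and 16.6, 29.6 and 19.1 in UUO. Its call in UUO (-0.72 ± 0.25, adjusted p = 0.029) was lost without control replicate 1 (-0.52, adjusted p = 0.13), UUO replicate 1 (-0.52, 0.16) or UUO replicate 3 (-0.70, 0.071), and in 9 of 24 alternatives in all. In all, 1 of 5 members tested in CD-P was called in UIR and 4 in UUO, all lower, against 18.7% and 32.8% of 9423 genes, and 1 in UUO against UIR, against 3.37%. The medians were -0.29 and -0.79, beside 0.01 and 0.02 over all genes.

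The CD-P class held 3 clusters, and the groups used them differently. A cluster led by Aqp2 and Aqp3, the water channels of the principal cell, held 293 of 299 control cells, 193 of 359 from UIR and 14 of 290 from UUO. A cluster led by Spink8 and Sprr2f held 0 control, 130 UIR and 212 UUO cells, and one led by Aldh1a3 and Spink8 held 6, 36 and 64. Tfcp2l1 was at 1284 CPM in control cells and 1016 in UIR cells of the Aqp2 cluster, at 561 in UIR and 504 in UUO cells of the Spink8 cluster, and at 336 and 106 in the Aldh1a3 cluster. Within the Aqp2 cluster Tfap2b was at 205 CPM in controls and 238 in UIR, Gata3 at 345 and 345 and Esrrg at 32.2 and 41.3. In the Spink8 cluster Tfap2b was at 160 and 116, and in the Aldh1a3 cluster, where Gata3 was at 434 and 408 CPM, Tfap2b was at 4.82 and 4.31. Hnf4g in principal cells was confined, in these libraries, to 26 UMIs in UIR and 46 in UUO of the Spink8 cluster and 3 UMIs in UUO of the Aldh1a3 cluster, with 0 in the Aqp2 cluster of control and UIR cells. The summed CD-P markers were at 19203 to 26262 CPM in controls, 8172 to 9797 after UIR and 3028 to 3572 after UUO. The cluster values are sums without a test, and the clusters were found on the same cells, so how much of each change is a shift between clusters was not tested.

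**Figure D5:**
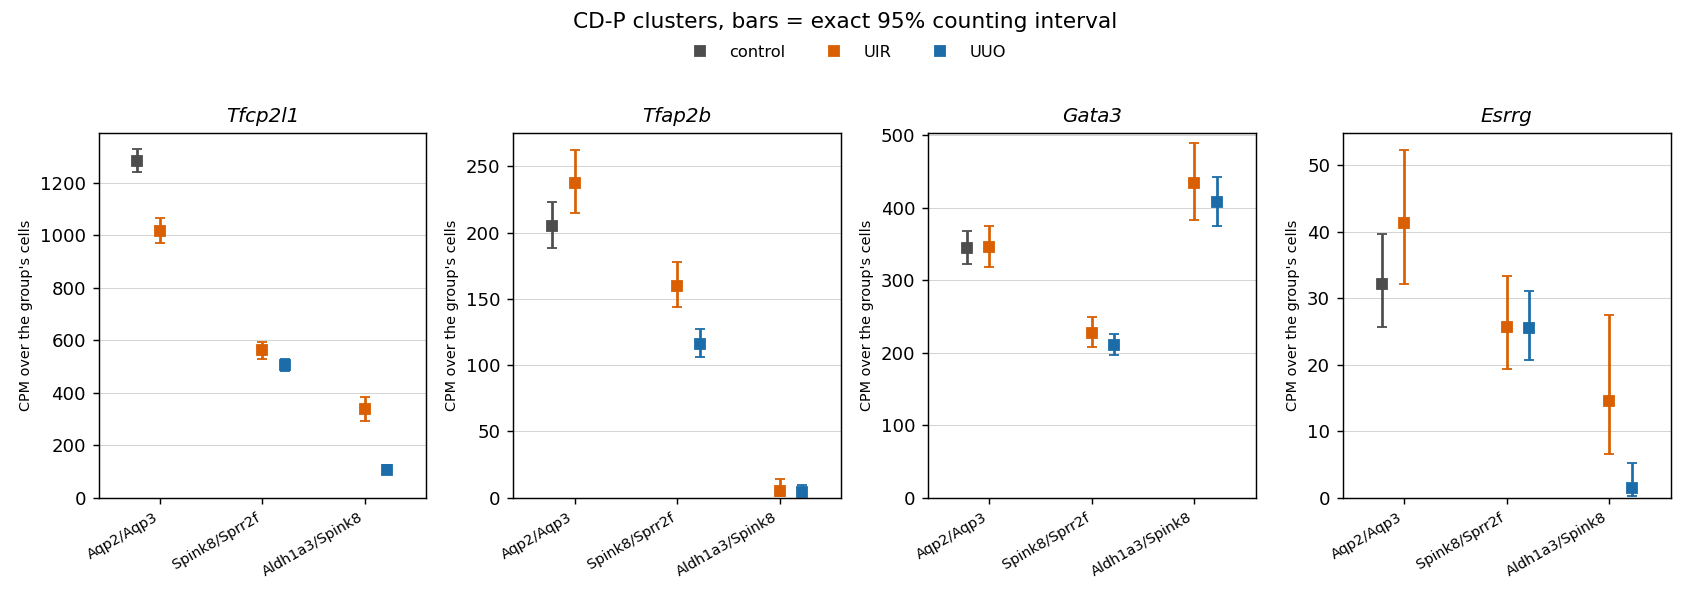
Levels of Tfcp2l1, Tfap2b, Gata3 and Esrrg in 3 clusters of principal cells, in CPM over all cells of a group (at least 20), with exact 95% counting intervals as bars. Tfcp2l1 is highest in the Aqp2/Aqp3 cluster and lower in both others, and Tfap2b is near 0 in the Aldh1a3/Spink8 cluster, where Gata3 is highest.

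In intercalated cells Esrrg was called lower in both models and the other 4 members tested were not called against control. Tfcp2l1 was at 1504, 1206, 1230, 1185 and 1517 CPM in controls, 1348, 1279 and 1325 in UIR and 1330, 1561 and 1209 in UUO, with overlap and no call (-0.33, adjusted p = 0.11, and -0.30, adjusted p = 0.13). Gata3 changed by 0.10 and -0.15 and Tfap2b by 0.31 and -0.29, with no call, and without TMM both were called higher in UIR, Gata3 by 0.43 (adjusted p = 0.048) and Tfap2b by 0.62 (0.030). Without the deep cluster Gata3 was at 91.8, 85.6, 57.9, 116 and 117 CPM in controls, 128, 166 and 126 in UIR and 169, 190 and 147 in UUO, every injured library above every control, and its changes of 0.30 ± 0.18 and 0.46 ± 0.18 were not called (adjusted p = 0.33 and 0.072). Esrrg was at 99.4, 48.0, 35.6, 60.9 and 62.5 CPM in controls, 49.4, 45.8 and 49.6 in UIR and 40.7, 46.2 and 41.8 in UUO, all injured libraries above the lowest control. It was called lower in both (-0.73 ± 0.19, adjusted p = 0.0075, and -0.94 ± 0.21, adjusted p = 0.0016), but without control replicate 1 the UIR change was -0.45 (adjusted p = 0.093), without TMM it was -0.42 (adjusted p = 0.11), and against the N controls alone the changes were -0.13 and -0.34 in UIR and UUO, neither called. The UUO change without TMM was -0.59, still called. Emx1 was at 36.1, 25.7 and 27.2 CPM in UIR and 15.7, 8.83 and 11.2 in UUO without overlap, beside 24.8, 16.0, 4.19, 28.4 and 13.3 in controls. The models differed by -1.29 ± 0.27 (UUO minus UIR, adjusted p = 0.011), which fell to -1.13 (adjusted p = 0.096) without UIR replicate 1 and -1.10 (0.098) without UUO replicate 2, and neither model was called against control (0.39, adjusted p = 0.37, and -0.90 ± 0.34, adjusted p = 0.058). Emx1 in CD-I sat in the deep cluster, at 32.9 CPM in control, 40.3 in UIR and 22.0 in UUO cells, and that cluster held 37 of 234, 226 of 640 and 54 of 244 cells. Without it no library was above 6.89 CPM of Emx1. Of 5 members tested, 1 was called in each model, against 21.1% and 27.3% of 9311 genes, and 1 between them, against 2.13%.

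In the thin limb, where 2 control, 3 UIR and 1 UUO library had enough cells, Irx1 was at 243 and 139 CPM in controls and 85.6, 122 and 107 in UIR and was called lower (-0.87 ± 0.25, adjusted p = 0.041). Tfap2b was at 12.1 and 7.32 CPM in controls and 60.5, 44.3 and 37.4 in UIR and was called higher (2.22 ± 0.52, adjusted p = 0.012). Tfap2b passed the filter on low counts only through the injured libraries, so its change is a description and its call is not given as support. Irx1 and Tfap2b were the 2 called of 4 members tested there, beside 5.85% of 9469 genes, a count that includes Tfap2b despite that filter. Leaving out 1 of the 2 control libraries leaves a single one, which is then assumed to vary like the other groups. Neither call held without control replicate 1, when Irx1 changed by -0.44 (adjusted p = 0.57) and Tfap2b by 2.59 (0.078), and Tfap2b also lost its call without control replicate 5 (1.89, 0.14), and Irx1 without UIR replicate 1 (-0.76, 0.094) or 2 (-0.99, 0.051). With DESeq2 neither was called (-0.90, adjusted p = 0.18 for Irx1 and 2.24, 0.11 for Tfap2b), and Irx1 was not called in 7 of 22 alternatives. The single UUO library had 91.2 CPM of Irx1 and 29.0 of Tfap2b.

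Over the classes PT, LOH, DT, CD-P and CD-I, 29 of 40 pairs of member and class passed the filter on low counts. In UIR 10 of the 29 were called, 3 higher and 7 lower, and in UUO 12, 1 higher and 11 lower, beside 14.4 to 33.5% and 10.9 to 40.9% of all genes by class. These counts include Hnf4a and Hnf4g in LOH and Gata3 in PT, which passed the filter only through the groups where they were high. Without TMM scaling 13 were called in UIR, 7 higher and 6 lower, and 12 in UUO, 3 higher and 9 lower. Both comparisons use the same control libraries. Directly between the models 3 were called, all lower in UUO: Emx1 in DT, Tfap2b in CD-P and Emx1 in CD-I, and in LOH edgeR called 0 of 6, beside 1.99% of genes. There 3 members (Hnf4a, Tfap2b and Irx1) had an unadjusted p under 0.05 and DESeq2 called 1 (Tfap2b).

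Other transcription factors of the nephron were counted from a list of 29. Of 8 listed loop and distal factors, the 8 tested in LOH had 4 called lower in UIR and 5 in UUO and none higher, and the 5 tested in CD-P had 4 lower in each model, beside 31.6% and 35.8% of all genes called in LOH and 18.7% and 32.8% in CD-P. Ppargc1a, the coactivator of mitochondrial biogenesis that works with the ERR receptors, was lower in LOH (-1.33 ± 0.15 in UIR and -1.46 ± 0.15 in UUO), CNT (-0.84 ± 0.15 and -0.99 ± 0.15), CD-P (-0.91 ± 0.20 and -1.43 ± 0.20) and CD-I (-0.54 ± 0.16 and -0.56 ± 0.17), and in PT it was not called (-0.32 ± 0.19 and -0.46 ± 0.27). The Esrrg relatives were lower too, Esrra in LOH with changes of -1.36 ± 0.18 and -1.44 ± 0.18 and Esrrb in LOH with -2.93 ± 0.26 and -3.29 ± 0.29. Nr3c2, the mineralocorticoid receptor that answers to aldosterone, fell in CD-P by 1.07 ± 0.16 in UIR and by 2.07 ± 0.17 in UUO.

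Of 5 listed factors of the whole nephron, Emx2, the relative of Emx1, was called higher in LOH, DT and CNT of both models. Its CPM in CNT were 25.5 to 91.8 in controls, 149 to 198 with UIR and 207 to 243 with UUO, and it rose by 1.41 ± 0.20 and 1.75 ± 0.20 (adjusted p = 6.6e-06 and 1.5e-07). Pax8, a factor of the early nephron, rose in LOH by 1.79 ± 0.21 and 2.36 ± 0.20, from 14.4 to 61.0 CPM to 131 to 162 and 197 to 237, and was not called in PT (-0.07 ± 0.14 and -0.13 ± 0.19). Pax8 was also called higher in DT of UUO, but lower in CNT of UIR. Pax2 was called higher in LOH and DT of both models and lower in CD-P of UUO. Lhx1 fell in CD-P by 1.39 ± 0.19 and by 1.03 ± 0.18. Of 7 listed collecting duct factors, 5 were tested in CD-P, and 1 was lower in UIR (Ehf) and 3 in UUO (Ehf, Elf5 and Mecom). In CD-I, Hmx2 fell by 1.40 ± 0.31 and by 2.78 ± 0.34, while Dmrt2, of type A intercalated cells, rose by 0.68 ± 0.22 and 1.56 ± 0.22, in a class whose type A and type B clusters held 49 and 148 cells in controls, 180 and 234 in UIR and 145 and 45 in UUO. All 5 injury-associated factors listed (Sox4, Sox9, Elf3, Runx1 and Klf6) were called higher in LOH, DT, CNT and CD-P of both models, and in PT 5 were in UIR and 4 in UUO, beside the shares of all genes called that are given for each class above. Sox4 in LOH, for example, was at 115 to 186 CPM in controls, 619 to 731 with UIR and 678 to 840 with UUO.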

How the data were processed

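The libraries were made from kidneys dissociated with a cold-active protease and run on the 10x Chromium 3′ v3 assay. The authors deposited raw UMI counts of every barcode and gene, not normalized, on mm10 with Ensembl identifiers. The submitters' processing notes name Cell Ranger 3.1.0, and the study's methods a later version. Cells were called per library (above 10% of the 99th percentile of UMIs among the 3000 largest barcodes, plus barcodes of at least 500 UMIs that differed from empty droplets, FDR 0.01). Barcodes over 30% mitochondrial or 5% hemoglobin UMIs or under 200 genes, and the 7.5% with the highest doublet scores, were left out. Clustering (scanpy 1.11.5, 2000 variable genes without members and markers, resolution 1) was repeated within tubular cells, and clusters were named from fixed markers. The DT class joins DCT and CNT.

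UMIs were summed per class and library (at least 20 cells) and tested with edgeR 4.0.16 (filter on low counts, TMM, quasi-likelihood, 3 groups in 1 model). DESeq2 1.42.0 and the other settings of the closing section were alternatives, and the scripts were tested on simulated counts. Intervals and floors cover counting error only. The named genes are the 8 members in every class, the 3 genes most like each in controls, and 2 lists, of 29 nephron factors and 18 proximal genes of mature function. One gene that the rule on likeness names is not reported here. Members and lists were chosen with earlier results of these data known. The UMI cap, the fit without TMM and the depth of thinning were added after seeing the data.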

Additional observations from a re-analysis of the deposited data

Results flagged for a closer look

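Among 77 groups of control libraries, 1 per member and class, 10 had a library set apart from the others by a gap of over 0.71 of the group's range. For independent, normally spread values chance gives about 1 such group in 20. Sparse counts and classes that share cells (DT with DCT and CNT, PT with its segments) do not meet that, so the rate cannot be set against the 10. Of the 10, 6 rest on 1 to 3 UMIs with the other libraries at 0: Hnf4g in DCT (0.895 CPM in control replicate 1, 0 in the others), in CNT (3.28 CPM in replicate 5) and in CD-I (1.04 CPM in replicate 1), Gata3 in PT S1 (1.19 CPM in replicate 1) and PT S3 (0.921 CPM in replicate 5), and Irx1 in PT S1 (1.62 CPM in replicate 3). In PT S2 Irx1 was at 5.0 CPM in replicate 1, against 0.171 to 1.45 in the others, and in PT S1 Emx1 was at 5.94 CPM in replicate 3, against 12.3 to 12.8 in the others. Tfcp2l1 in DCT was at 503 CPM in replicate 2, against 399 to 425, and Gata3 in CD-P at 375 CPM in replicate 1, against 328 to 341.

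The injury models themselves differed, by the test of UUO against UIR, in Emx1 in DT (-0.88), CNT (-0.96) and CD-I (-1.29) and in Tfap2b in CD-P (-0.89), all lower in UUO on the log2 scale. The DT class contains the CNT cells.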

How the results depend on the processing

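Of 35 called results of members, 7 were called in every alternative that gave a value, and 28 lost the call in 1 or more. The 7 include Hnf4a in LOH of both models and Hnf4g in LOH of UUO, which passed the filter on low counts only through the groups where they were high and are not given as support, and Hnf4a had no value with free RNA subtracted, at the 15% mitochondrial limit or with capped cells. The other 4 are Emx1 in DT of both models, Esrrg in DT of UIR and Tfcp2l1 in CD-P of UUO. That result of Esrrg had no value with capped cells, and that of Tfcp2l1 none at a clustering resolution of 2. No alternative held the mix of DCT and CNT cells in DT fixed. In UIR, Emx1 was called neither in DCT nor in CNT alone, and how much of its fall in DT is a change of mix was not tested. The sign of 2 changed: Irx1 in UUO LOH changed by 0.0033 with cells capped at 2000 UMIs, and Tfcp2l1 in UUO CNT by 0.0247 without TMM. Over PT, LOH, DT, CD-P and CD-I the counts of called members were 10 in UIR, 12 in UUO and 3 between the models, and leaving out 1 library at a time gave 8 to 11, 11 to 15 and 2 to 4. These are of 29 pairs tested, and against control the settings tested 17 pairs at a mitochondrial limit of 15%, 34 at 50% and against the N controls alone, 21 with capped cells, 40 without the filter on low counts and 26 with free RNA subtracted. The count in UIR was 6 against the N controls alone, 4 with the limit of 15%, 18 with 50%, 4 with capped cells and 7 with free RNA subtracted. In UUO it was 21 without the filter, 3 and 19 with the limits of 15% and 50%, 5 with capped cells and 11 with free RNA subtracted. That subtraction left 4 called results without a test (Tfap2b and Gata3 in UIR PT, Hnf4a in LOH of both models), and of those still tested Irx1 in the thin limb lost its call (-0.86, adjusted p = 0.056). Between the models it was 5 with DESeq2, 7 without the filter, 10 with the limit of 50%, 5 with doublets kept and 6 with the library number as a replicate block. The library names of the 2 models share only a number, and those of replicate 3 (UIR and UUO) carry none, like Ctrl. Whether the replicate 3 libraries shared a run is not given and was not tested. Of the 3 same-numbered pairs of injured libraries, that of replicate 3 had deviations correlated at 0.124 to 0.410 in the 6 classes compared and the other two fell below 0.1 in most, 8 of 18 values over 0.1 in all beside 8 of 36 for different numbers, so the numbers were not taken to pair the libraries. Shares of cells with a UMI gave 7 tests under 0.05 with all UMIs and 0 when thinned, where few or no cells kept a UMI of the gene. At the 15% limit LOH and CD-I had no fit against control. The mitochondrial limit changes which control cells remain, and the cause of these shifts was not tested. Depth limits Hnf4g, of which the control groups in LOH, CNT, CD-P and CD-I held 0 or 1 UMI, and changes below the floors given are not detectable there.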
